A study of Homo sapiens with 5 samples.

Results

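The binding sites of ENL carrying the Y78A substitution were compared with the sites of β-hydroxybutyrylated histone H3 lysine 9 (H3K9bhb) in HepG2 cells, a human liver cancer line. All peaks of the 2 lists on chromosomes 1 to 22, X and Y were members, 5422 from the Y78A library and 9176 from the H3K9bhb library, or 14598 of the 61337 peaks of the series. A peak was called shared when at least 1 bp of it was covered by a peak of the other list, and Y78A-only or H3K9bhb-only when it was not. Each of the 5 libraries of the series (H3K9bhb, Flag-ENL Y78A, wild type Flag-ENL, H3K9ac for acetylation and H3K9cr for crotonylation) was the only one of its group, made by CUT&Tag, in which an antibody directs a transposase to tag the chromatin around its target. Per the design text, the HepG2 cells stably carried Flag-tagged ENL, and antibodies to Flag or to H3K9bhb were used. The sources used here do not give which ENL form the cells of the H3K9bhb library carried, whether they still made their own ENL, whether a line was 1 clone, the promoter of the tagged gene or any treatment. With 1 library a side no difference had a replicate check and no test was possible. All intervals are 95% intervals, and they cover counting error only.

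ENL, the product of MLLT1, is a subunit of complexes that release RNA polymerase II into elongation. Its YEATS domain binds acylated lysines of histone tails in an aromatic pocket, and Y78A replaces a tyrosine of that pocket with alanine. β-Hydroxybutyrylation is a lysine acylation linked to the ketone body β-hydroxybutyrate, which liver makes in fasting. The comparison asks where the pocket-substituted protein and the mark that ENL is proposed to read were found on the same chromatin. A histone mark and a transposase both favour open chromatin, so a shared peak shows the same place and not contact between the protein and the mark.

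Promoter sequences are shown for 7 of the named genes whose promoter window was touched by the peaks of their class. The stretches below are the 250 bases before the gene start, 5′ to 3′ on the strand of the gene, from RefSeq on GRCh38.p14, and capitals mark any match on either strand to CCAAT or to GGGCGG or to CCGGAAG or to TATAAA or to CACGTG or to TGACGT. The first 3 belong to genes with both a Y78A and an H3K9bhb peak: SPATC1L (chr21:46184460-46184709, minus strand), FARP2 (chr2:241356035-241356284, plus strand) and HNRNPC (chr14:21269443-21269692, minus strand).
SPATC1L: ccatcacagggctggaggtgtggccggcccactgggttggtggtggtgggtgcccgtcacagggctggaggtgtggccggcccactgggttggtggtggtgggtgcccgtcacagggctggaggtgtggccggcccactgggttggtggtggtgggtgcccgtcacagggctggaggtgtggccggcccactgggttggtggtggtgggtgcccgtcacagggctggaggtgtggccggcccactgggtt
FARP2: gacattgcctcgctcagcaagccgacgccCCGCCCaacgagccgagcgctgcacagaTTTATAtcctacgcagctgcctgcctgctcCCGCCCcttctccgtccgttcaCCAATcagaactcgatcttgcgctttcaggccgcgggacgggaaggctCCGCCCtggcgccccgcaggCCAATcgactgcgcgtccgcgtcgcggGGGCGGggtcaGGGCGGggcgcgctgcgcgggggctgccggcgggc
HNRNPC: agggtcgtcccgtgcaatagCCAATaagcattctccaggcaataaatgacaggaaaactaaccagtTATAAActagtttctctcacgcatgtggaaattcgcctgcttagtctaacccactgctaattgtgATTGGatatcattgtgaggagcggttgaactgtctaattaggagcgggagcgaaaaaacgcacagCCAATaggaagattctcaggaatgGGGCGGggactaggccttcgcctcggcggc
The stretch before SPATC1L is a tandem repeat without a match to any of the 6 motifs. The one before HNRNPC holds CCAAT 3 times, and the one before FARP2 holds it 2 times with GGGCGG 5 times.

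The next pair belongs to genes with a Y78A peak and no H3K9bhb peak, SAFB (chr19:5622833-5623082, plus strand) and RPL13A (chr19:49487358-49487607, plus strand).
SAFB: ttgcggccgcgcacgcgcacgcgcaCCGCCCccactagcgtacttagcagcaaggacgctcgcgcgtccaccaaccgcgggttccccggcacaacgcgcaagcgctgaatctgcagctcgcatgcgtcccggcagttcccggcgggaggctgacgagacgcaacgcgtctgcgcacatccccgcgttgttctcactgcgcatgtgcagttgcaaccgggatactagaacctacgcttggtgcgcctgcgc
RPL13A: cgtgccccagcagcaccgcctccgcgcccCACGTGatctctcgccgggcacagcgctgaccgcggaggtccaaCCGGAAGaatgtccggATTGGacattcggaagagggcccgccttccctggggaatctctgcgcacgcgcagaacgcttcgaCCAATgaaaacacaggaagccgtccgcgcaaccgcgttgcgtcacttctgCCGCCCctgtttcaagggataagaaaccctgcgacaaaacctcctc
The last pair belongs to genes with an H3K9bhb peak and no Y78A peak, ICE1 (chr5:5422427-5422676, plus strand) and LMAN1 (chr18:59359266-59359515, minus strand).
ICE1: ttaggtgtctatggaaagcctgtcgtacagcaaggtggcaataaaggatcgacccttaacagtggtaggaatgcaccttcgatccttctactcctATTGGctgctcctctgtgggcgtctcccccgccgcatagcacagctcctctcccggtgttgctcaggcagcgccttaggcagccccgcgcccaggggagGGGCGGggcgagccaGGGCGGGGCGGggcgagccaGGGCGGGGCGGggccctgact
LMAN1: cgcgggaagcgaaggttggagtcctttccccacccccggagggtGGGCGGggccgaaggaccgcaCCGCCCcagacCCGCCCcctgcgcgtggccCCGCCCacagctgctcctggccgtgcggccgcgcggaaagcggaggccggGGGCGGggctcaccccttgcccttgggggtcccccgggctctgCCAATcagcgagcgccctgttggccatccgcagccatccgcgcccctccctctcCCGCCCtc
The 2 H3K9bhb-only promoters hold GGGCGG 5 and 6 times and CCAAT 1 time each. The 2 Y78A-only promoters hold GGGCGG 1 time each, and RPL13A also holds CCAAT 2 times.

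The lists differ in ways that bear on any overlap. The smallest deposited −log10 q was 2.04 in Y78A and 2.02 in H3K9bhb, close to each other and to wild type ENL (2.05), whereas H3K9ac and H3K9cr reached down to 1.31 and 1.34. Y78A peaks covered 2.10 Mb and H3K9bhb peaks 3.70 Mb. Read totals are unknown. The deposited fold and p returned a whole number of fragments at the summit for 99.98% of Y78A peaks and 100% of H3K9bhb peaks. The median was 21 fragments in both lists, and the most frequent background of the Y78A list was 0.901 times that of H3K9bhb, a ratio that may also depend on call settings. Only 3.32% of Y78A and 3.95% of H3K9bhb peaks had that most frequent background (1.09 and 1.21), and the median backgrounds were 3.02 and 3.37. Peaks hold no RNA with which to check the cell type. H3K9ac peaks lay at the ends of 26 of 40 genes of liver secreted proteins and 22 of 30 of liver transcription factors, against 5 of 40 genes of other tissues. They also lay at 43 of 45 DNA replication genes and 39 of 40 cell cycle genes. In promoter windows of 300 bases, narrower than these ends, H3K9ac was present at 51.5% of 15842 coding genes. These counts therefore do not identify liver cells.

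Most Y78A peaks lay on H3K9bhb, and fewer than 50% of H3K9bhb peaks lay on Y78A. Of 5422 Y78A peaks, 4286 were shared (79.0%, interval 77.9 to 80.1) and 1136 were Y78A-only. Of 9176 H3K9bhb peaks, 4260 were shared (46.4%, interval 45.4 to 47.4) and 4916 were H3K9bhb-only. The pairing was mostly 1 to 1: 23 Y78A peaks touched more than 1 H3K9bhb peak and 48 H3K9bhb peaks touched more than 1 Y78A peak. Both shares depend on list length. With the H3K9bhb list limited to its strongest 5422 peaks, the shared share was 62.9% for Y78A (interval 61.6 to 64.1) and 62.2% for H3K9bhb (interval 60.9 to 63.4). With peaks paired mostly 1 to 1, lists of the same length must give nearly equal shares.

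Shared peaks were stronger and wider than peaks of 1 list only, in both lists. Strength here is the deposited −log10 p, which grows with depth and is therefore compared within a list. Among Y78A peaks the median strength was 11.8 (quartiles 9.31 and 16.0) for shared and 9.31 (quartiles 7.85 and 11.5) for Y78A-only peaks, a ratio of 1.27 (interval 1.23 to 1.32). For H3K9bhb the medians were 13.0 (quartiles 9.99 and 17.4) and 9.04 (quartiles 7.69 and 10.9), a ratio of 1.44 (interval 1.40 to 1.47). The quartile ranges of the classes overlapped in both lists. In whole fragments, the median summit held 21 against 19 for Y78A and 27 against 18 for H3K9bhb. Median widths were 368 bp against 265 bp in Y78A and 442 bp against 299 bp in H3K9bhb.

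With each list divided into 4 groups of equal size by strength, the shared share was higher in every stronger group. From weakest to strongest, 64.1%, 75.1%, 83.7% and 93.3% of Y78A peaks were shared. For H3K9bhb peaks the shares were 19.9%, 31.9%, 50.6% and 83.3%. Wild type ENL covered 51.2%, 68.7%, 83.0% and 95.9% of the same 4 H3K9bhb groups, so its share stood above that of Y78A in each, by the smallest margin among the strongest peaks. The wild type list is also the longer (11394 peaks). Ranked by the deposited fold over background in place of p, the Y78A groups gave 61.7%, 77.9%, 85.2% and 91.5%. The H3K9bhb groups then gave 41.9%, 36.7%, 44.5% and 62.7%, so the order of the weakest groups turned around.

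**Figure D1:**
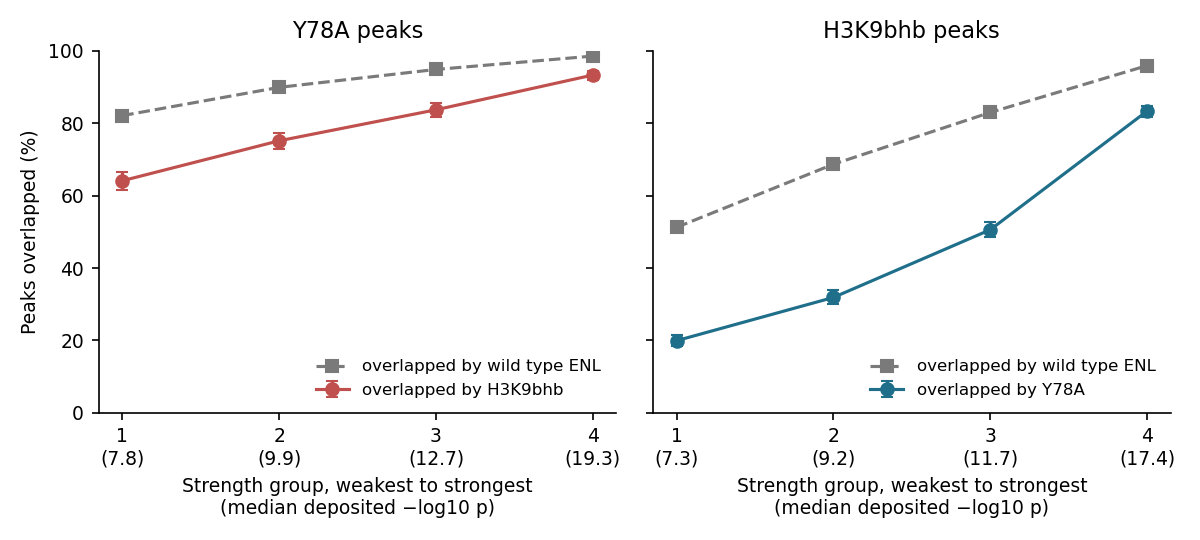
Share of Y78A peaks (left) and H3K9bhb peaks (right) overlapped by the other list, in percent, in 4 groups of equal size from weakest to strongest by deposited −log10 p, with 95% Wilson intervals; squares give the share overlapped by wild type ENL. H3K9bhb peaks on Y78A go from 19.9% to 83.3% across the groups, and wild type ENL lies above Y78A in every group.

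The 50 strongest Y78A peaks were all shared, and so were the 50 strongest H3K9bhb peaks. Most of these had no protein-coding gene end nearby. Of the Y78A 50, 47 lay in all 5 lists, 25 had summits over 100 kb from any protein-coding gene end, and 2 had summits within 1 kb of one. The H3K9bhb 50 gave 48, 20 and 2. Among the 500 strongest Y78A peaks 493 were shared, 362 lay in all 5 lists and 186 were over 100 kb from a coding gene end. The strongest shared peak, chr3:93470292-93470859 (hg38), had a −log10 p of 327 in Y78A and 302 in H3K9bhb. It was followed by chr21:10692660-10693075 (125 and 99.99) and chr17:25920043-25920400 (122 and 88.9). These 3 peaks lay 402470, 87156 and 1373891 bp from the nearest coding gene end and were present in all 5 lists. The part that repeated sequence and read mapping play at such peaks was not tested. Without peaks over 100 kb from a coding gene end, 80.2% of Y78A peaks and 45.6% of H3K9bhb peaks were shared, close to the shares of the full lists.

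The strongest peaks of 1 list only were far weaker than the strongest shared ones. Away from gene ends, the highest Y78A-only peaks were chrY:11303321-11303614 at 26.0, chr9:70038203-70038451 at 25.8 and chr11:68099573-68099929 at 22.5. The last lies inside CHKA, which encodes a choline kinase. Wild type ENL was present at all 3 and H3K9ac only at the first. The highest H3K9bhb-only peaks were chr13:95025164-95025472 at 27.6, inside ABCC4, an ATP-driven efflux transporter, chr4:190203029-190203910 at 26.6 and chr6:147667-148038 at 23.2. The first and second of them lay in the wild type, H3K9ac and H3K9cr lists too, so the Y78A list was the only one of the 5 without them.

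Where both lists had a peak, their summits were close. Over the 4286 shared Y78A peaks, the median distance to the nearest summit of an overlapping H3K9bhb peak was 53 bp (interval 51 to 56, quartiles 20 and 118). The distance was at most 50 bp for 48.3%, at most 100 bp for 70.2% and at most 500 bp for 98.6%. In 95.3% of shared Y78A peaks the summit lay inside an H3K9bhb peak. Stronger Y78A peaks had closer summits, with medians of 82, 62, 55 and 34 bp from the weakest to the strongest group. Medians were 64 bp within 1 kb of a coding gene end (2061 peaks), 45 bp elsewhere (2225 peaks) and 29 bp over 100 kb away from one (601 peaks).

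**Figure D2:**
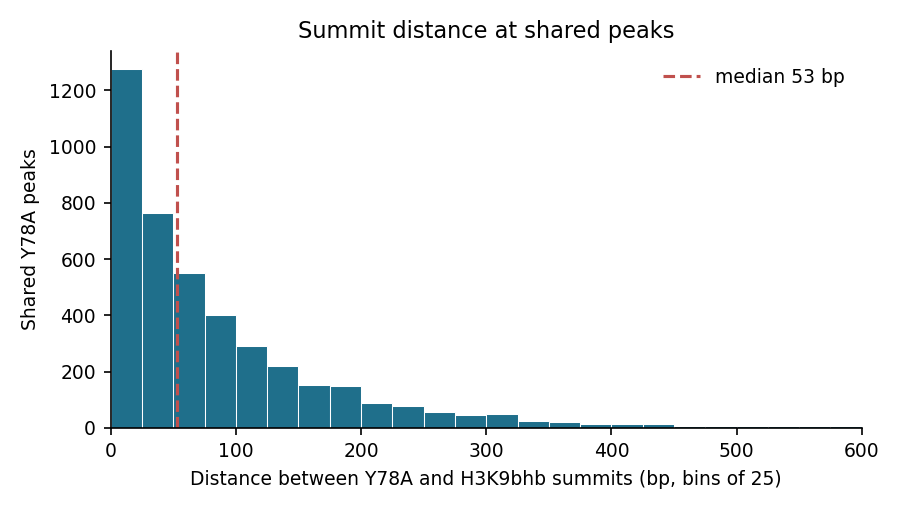
Number of shared Y78A peaks by distance in bp between the Y78A summit and the nearest summit of an overlapping H3K9bhb peak, in bins of 25 bp up to 600 bp; the dashed line is the median of 53 bp. The first bin is the fullest, and counts decline with distance.

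The Y78A summit was about as near to the H3K9bhb summit as to that of wild type ENL. At the 4118 Y78A peaks that touched both, the median distance was 53 bp (interval 51 to 56) to H3K9bhb and 51 bp (interval 49 to 54) to wild type ENL. The Y78A summit was nearer wild type ENL at 2062 of them and nearer H3K9bhb at 1928. At the 1427 Y78A peaks present in the 4 other lists as well, the medians were 40 bp to wild type ENL, 41 bp to H3K9bhb, 52 bp to H3K9cr and 75 bp (interval 69 to 84) to H3K9ac. H3K9ac was thus the list whose summits lay farthest from Y78A at these sites, and its peaks are the widest of the series.

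Strength went together between the lists at shared sites. Across the 4286 shared Y78A peaks, each paired with its nearest H3K9bhb summit, Spearman's rho was 0.53 for −log10 p, 0.71 for fold and 0.50 for width. At the 2061 pairs near a coding gene end it was 0.42 for −log10 p and 0.60 for fold. The pairs share local copy number and mappability, and peaks are not independent replicates, so these values describe the 2 libraries.

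Few peaks of 1 list only were near misses. The median gap from a Y78A-only peak to the nearest H3K9bhb peak was 24390 bp, and 93 of 1136 (8.19%) lay within 500 bp of one. From H3K9bhb-only peaks to the nearest Y78A peak the median gap was 113502 bp, and 125 of 4916 (2.54%) lay within 500 bp. The Y78A list is the sparser, which lengthens the second gap.

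The other 3 lists, which had no part in defining the classes, covered shared peaks more often than the rest. Shared peaks were also the stronger ones. Wild type coverage rose with strength, from 82.1% to 98.5% of Y78A peaks and from 51.2% to 95.9% of H3K9bhb peaks across the 4 groups. The classes were not compared within strength groups. Wild type ENL covered 96.1% of shared Y78A peaks (interval 95.5 to 96.6), 73.4% of Y78A-only peaks (interval 70.8 to 75.9) and 55.9% of H3K9bhb-only peaks (interval 54.5 to 57.3). H3K9ac covered 90.7%, 67.3% and 75.1%, and H3K9cr 36.6%, 11.3% and 14.6%, in the same order. Y78A-only peaks thus had wild type ENL more often, and H3K9ac less often, than H3K9bhb-only peaks, with intervals apart in both cases. With the wild type list limited to its strongest 5422 peaks, its shares were 81.5%, 42.0% (interval 39.2 to 44.9) and 19.9% (interval 18.8 to 21.1), in the same order of classes. None of the 3 lists covered 0.56% of shared, 10.3% of Y78A-only and 13.4% of H3K9bhb-only peaks.

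**Figure D3:**
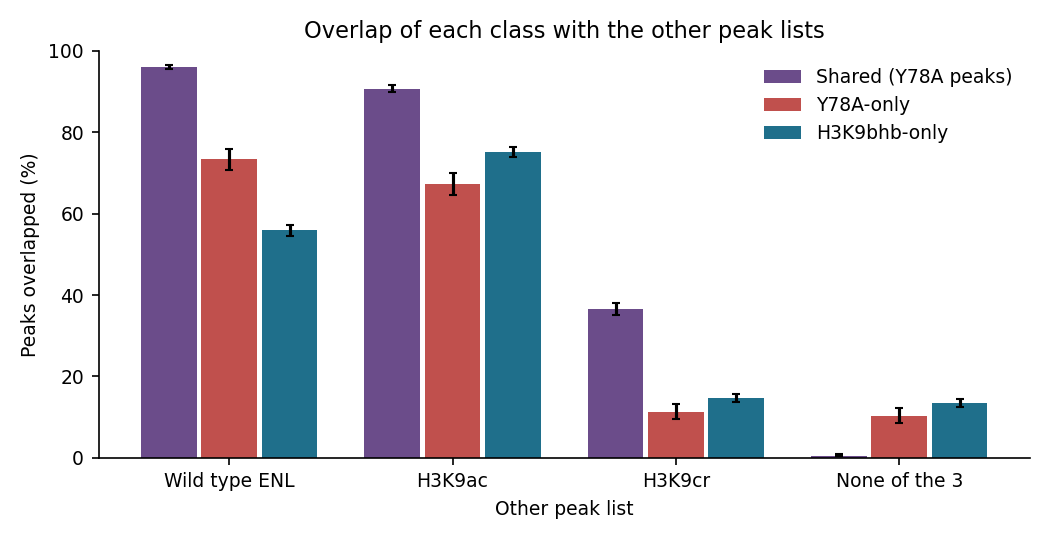
Share of peaks of each class, in percent, overlapped by wild type ENL, H3K9ac, H3K9cr or none of these 3, with 95% Wilson intervals. Shared peaks have the highest bar in each of the 3 lists, and wild type ENL covers 73.4% of Y78A-only but 55.9% of H3K9bhb-only peaks (42.0% and 19.9% with the wild type list limited to 5422 peaks).

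The wild type peaks at these sites also differed in strength. Their median −log10 p was 17.2 at shared Y78A peaks, 12.4 at Y78A-only peaks and 10.3 (interval 10.2 to 10.4) at H3K9bhb-only peaks, against 11.2 over all wild type peaks. At H3K9bhb-only sites a wild type peak was thus below the median of its list more often than above it. H3K9ac peaks had medians of 15.4 at shared, 10.5 at Y78A-only and 13.7 at H3K9bhb-only sites, against 8.61 over the whole H3K9ac list.

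Seen from the mark, H3K9bhb peaks fell into 4 groups by ENL form. Both forms were present at 4106 (44.7%), wild type alone at 2747 (29.9%), Y78A alone at 154 (1.68%) and neither at 2169 (23.6%). Median H3K9bhb strength in these groups was 13.1, 9.64, 9.96 and 8.33. With the wild type list limited to its strongest 5422 peaks, the groups held 3469, 980 (10.7%), 791 (8.62%) and 3936 peaks, so the surplus of wild type alone over Y78A alone was smaller and still present (intervals 10.1 to 11.3 and 8.06 to 9.21). H3K9bhb lay on 81.1% of those 5422 wild type peaks (interval 80.0 to 82.1), against 79.0% (interval 77.9 to 80.1) of the Y78A peaks. Between these lists of equal length the shares on the mark differed little, and this difference was not tested, since the lists hold many of the same sites. The wild type side held only its strongest peaks, while the Y78A list kept its weakest ones. Among Y78A peaks the shared share rose with strength, so this setting does not compare the 2 forms at like strength. The share for the full wild type list is not given here.

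Shared peaks lay at gene ends more often than the others. Summits within 1 kb of either end of a protein-coding gene made up 48.1% of shared Y78A peaks and 30.1% of Y78A-only peaks, a difference of 18.0 percentage points (interval 14.9 to 21.0). In the H3K9bhb list the shares were 47.9% and 38.8%, a difference of 9.16 points (interval 7.13 to 11.2). Within the 4 strength groups the difference was 19.0 to 24.3 points in Y78A and 6.08 to 11.7 points in H3K9bhb, so it was present at each strength. Among peaks with −log10 q of 5 or more in both lists it was 12.6 points in Y78A and 3.81 points (interval 1.44 to 6.17) in H3K9bhb. With the H3K9bhb list limited to 5422 peaks it was 10.0003 points in Y78A (interval 7.28 to 12.7) and 5.36 points in H3K9bhb (interval 2.63 to 8.07).

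Peaks of 1 list only were more often inside genes, away from their ends. The shares inside a coding gene were 20.4% of shared Y78A, 28.5% of Y78A-only and 30.7% of H3K9bhb-only peaks. Outside genes and over 100 kb from a coding gene lay 12.0% of shared Y78A peaks, 17.1% of Y78A-only peaks and 7.42% of H3K9bhb-only peaks. The Y78A-only class thus had the largest share far from genes of these 3 classes.

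At the level of genes, most genes with Y78A also had H3K9bhb. A gene was counted when a peak overlapped the 1 kb on either side of one of its ends, which can also catch a peak of a neighbour. Of 20037 protein-coding genes, 2934 had Y78A (14.6%) and 4766 had H3K9bhb (23.8%). Both were present at 2574 (12.8%), Y78A alone at 360 (1.8%) and H3K9bhb alone at 2192 (10.9%). H3K9bhb was thus present at 87.7% of Y78A genes (interval 86.5 to 88.9), and Y78A at 54.0% of H3K9bhb genes (interval 52.6 to 55.4). At 2544 of the 2574 genes with both, peaks of the 2 lists overlapped each other. For 12 of the 360 and 17 of the 2192, the peak did touch the other list, at a point outside the window.

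The classes of genes differed in the presence of a wild type ENL peak and hardly in that of an H3K9ac peak. A wild type peak was found at 98.6% of genes with both, 87.5% of those with Y78A only and 70.8% of those with H3K9bhb only, against 8.91% of genes with neither. H3K9ac was present at 98.9%, 96.9% and 98.3%, against 42.0%. The H3K9ac list is the longest of the series, with 31493 peaks, and reached nearly all genes of these classes. Presence could therefore hardly show a difference in the level of acetylation. H3K9ac strength was not compared between the gene classes, and it did differ between the peak classes above. H3K9cr was present at 25.9%, 2.5% and 7.34%, against 0.416%. Across 4 groups of H3K9bhb genes by strength of their peak, Y78A was present at 26.6%, 41.1%, 60.7% and 87.7% and wild type ENL at 68.1%, 83.8%, 92.6% and 98.7%.

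The strongest Y78A peaks at genes with both were led by SPATC1L, whose product is related to a centriole protein, at the repeat shown above. Its strength was 56.8 in Y78A, 66.5 in H3K9bhb, 59.6 in wild type ENL, 30.1 in H3K9ac and 29.6 in H3K9cr. RBM39, which encodes a splicing coactivator, stood at 49.4 in Y78A and 32.9 in H3K9bhb, with summits 32 bp apart. FARP2, a guanine nucleotide exchange factor, stood at 41.4 and 48.6, with summits at −581 and −544 bp from the gene start and thus outside the stretch printed above. HNRNPC, an abundant binder of pre-mRNA, had 37.1 in Y78A and 27.0 in H3K9bhb, with summits at −248 and −227 bp from its start.

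Summits of the 2 lists were within 53 bp of each other at all 8 genes with both that the rule on strength named. ZNFX1, which encodes an RNA helicase, had 37.1 in Y78A and 29.7 in H3K9bhb. PABPC1, the main cytoplasmic poly(A)-binding protein, had 36.2 and 24.4. CCDC200, a coiled-coil gene, had 37.9 and 34.3. FAM86B1 had 38.1 and 49.5, and it belongs to a family of near-identical copies, so its reads are uncertain. Wild type ENL was present at all 8 genes, from 39.0 at CCDC200 to 69.5 at RBM39. H3K9cr was present at 7 of them and missing at ZNFX1.

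Genes with Y78A and no H3K9bhb in the window had lower values. Of the 8 highest, 4 are there through the window alone, since their Y78A peak touched an H3K9bhb peak beyond it. These were YAP1, the coactivator of the Hippo pathway, at 30.7, MAP3K11, a mixed lineage kinase, at 30.6, SLC25A45, of the mitochondrial carrier family, at 25.03, and TAF11L10, a member of a multicopy family, at 21.5. The 4 without H3K9bhb on the peak were the divergent pair SAFB and SAFB2, RPL13A and ABCC2. SAFB and SAFB2, which encode scaffold attachment factors, share the peak chr19:5622799-5623210 at 25.5 in Y78A and 25.3 in wild type ENL. RPL13A, a protein of the large ribosomal subunit, had 24.4 in Y78A and 32.2 in wild type ENL, and no H3K9ac peak. ABCC2, the export pump of the bile canaliculus, had 20.9 in Y78A, 25.8 in wild type ENL and 8.31 in H3K9ac, with the Y78A summit at −20 bp from the gene start. Wild type ENL was therefore present at each of these 4 genes.

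Among genes with H3K9bhb and no Y78A, ICE1 had the highest mark. ICE1 encodes a subunit of the little elongation complex, which supports transcription of small nuclear RNA genes by RNA polymerase II, and its strength was 30.5 in H3K9bhb, 24.3 in wild type ENL, 17.3 in H3K9ac and 14.8 in H3K9cr. LMAN1, the cargo receptor of the intermediate compartment, had 26.4 in H3K9bhb, 26.7 in H3K9ac and 13.1 in wild type ENL. NMBR, a neuropeptide receptor, and VTA1, a factor of endosomal sorting, share a peak at 22.7. CDON, a coreceptor for hedgehog ligands, had 22.7, and ENTPD1, an ectonucleotidase, had 22.0. All 6 of these genes had wild type ENL and H3K9ac. GGPS1, a synthase of geranylgeranyl diphosphate, at 25.3, and SLC27A1, a fatty acid transporter, at 24.5, complete the 8, and their H3K9bhb peaks touched a Y78A peak beyond the window.

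Among the 12 gene lists, splicing factors had the largest share with both. Counts are given with both, with Y78A only and with H3K9bhb only, beside the 12.8%, 1.8% and 10.9% of all coding genes. Of 46 splicing factor genes 25 had both (54.3%), 3 Y78A only and 7 H3K9bhb only. Y78A was present at 28 of them (60.9%), and at 78.1% (interval 61.2 to 89.0) of those with H3K9bhb. HNRNPR had 31.1 in Y78A and 28.0 in H3K9bhb, and HNRNPA3, another binder of pre-mRNA, had 27.7 and 19.6. TRA2B, a splicing activator, had Y78A only, at 15.1, with wild type ENL at 35.3, and SRSF3, a serine and arginine-rich factor, had Y78A only at 9.04 with wild type ENL at 31.0. PRPF4 and SNRPB, parts of the spliceosomal particles, had H3K9bhb only, at 12.9 and 11.6.

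Ribosomal protein genes had 22 of 77 with both (28.6%), 7 with Y78A only and 9 with H3K9bhb only. RPS19 stood at 20.6 in Y78A and 21.6 in H3K9bhb, RPS12 at 20.0 and 17.9, and RPL41 at 22.8 and 10.6 with both summits beside its 3′ end. RPL13A and RPL23A had Y78A only, at 24.4 and 16.1, and neither had H3K9ac. RPL39 and RPS14 had H3K9bhb only, at 12.9 and 11.8. This list had the most genes with Y78A only by count (7 of 77), and it is also the longest list. Liver transcription factors had a slightly larger share, with 3 of 30.

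Elongation genes, the partners among which ENL works, gave 9 of 33 with both, 2 with Y78A only and 6 with H3K9bhb only. ELL, an elongation factor of the super elongation complex, had 27.8 in Y78A and 23.7 in H3K9bhb with summits 3 bp apart. HEXIM1, the inhibitor of P-TEFb, had 26.1 in Y78A and 8.84 in H3K9bhb, and CCNT2, a cyclin of P-TEFb, had 21.6 and 25.1 with the summits at the same base. LEO1, of the PAF complex, and SUPT4H1, of the DSIF complex, had Y78A only, at 8.56 and 8.54. LARP7, of the 7SK particle, had H3K9bhb only, at 18.6, as did ICE1. All of these genes had wild type ENL.

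Genes of lysine acylation enzymes and readers gave 10 of 30 with both, 0 with Y78A only and 5 with H3K9bhb only. EP300, an acetyltransferase that also adds longer acyl groups, had 17.6 in Y78A and 11.6 in H3K9bhb. SIRT5, a deacylase, had 13.996 and 16.8, and KAT8, a histone acetyltransferase, had 13.8 and 14.1. YEATS4, a reader of the same domain family as ENL, had H3K9bhb only, at 11.3, and KAT5, another acetyltransferase, had H3K9bhb only at 11.3. Wild type ENL was present at all 5.

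For fatty acid oxidation and ketone bodies the counts were 5 with both, 2 with Y78A only and 8 with H3K9bhb only of 40. HADHA and HADHB, the divergent genes of the trifunctional protein, share a peak at 16.2 in Y78A and 13.8 in H3K9bhb. ECI1, an enoyl-CoA isomerase, and ETFB, an electron transfer flavoprotein subunit, had Y78A only, at 11.5 and 10.8. ETFDH, its dehydrogenase, and ACADM, the medium-chain acyl-CoA dehydrogenase, had H3K9bhb only, at 17.6 and 15.5. Y78A was thus present at 38.5% of the list's H3K9bhb genes (interval 17.7 to 64.5), an interval that holds the 54.0% of all genes.

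Fasting and gluconeogenesis gave 5 with both, 0 with Y78A only and 4 with H3K9bhb only of 30. PC, pyruvate carboxylase, had 20.6 in Y78A and 10.4 in H3K9bhb, and PCK2, the mitochondrial carboxykinase, had 11.2 and 12.9. SESN1, a stress-induced regulator of growth signalling, had 12.9 and 14.1 with summits 449 bp apart. CREB1, the cAMP-responsive factor, and INSIG2, a brake on sterol synthesis, had H3K9bhb only, at 19.7 and 11.4. Wild type ENL was present at all 5.

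Cholesterol and lipid synthesis gave 9 with both, 0 with Y78A only and 9 with H3K9bhb only of 30. SREBF2, the master factor of sterol synthesis, had 26.1 in Y78A and 9.90 in H3K9bhb. STARD4, a sterol carrier, had H3K9bhb only, at 12.0, and MVD, a decarboxylase of the mevalonate pathway, had H3K9bhb only at 11.5, at its 3′ end 11531 bp from the start. In all, 18 of the 30 genes (60%) had the mark and 9 (30%) had Y78A, beside 23.8% and 14.6% of all genes.

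Liver transcription factors had Y78A about as often as the mark, with 7 with both, 3 with Y78A only and 2 with H3K9bhb only of 30. NR0B2, a repressor of bile acid synthesis, had 27.4 in Y78A and 25 in H3K9bhb, with summits 226 bp apart. TBX3 had 23.5 and 17.1, and FOXA3, a pioneer factor, had 15.7 and 10.5. TCF7L2, the effector of Wnt signalling, and GATA6 had Y78A only, at 15.2 and 8.04. HNF4A, the nuclear receptor that sustains hepatocyte genes, and HHEX had H3K9bhb only, at 13.5 and 6.94, both with wild type ENL.

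Genes of liver secreted proteins gave 5 with both, 1 with Y78A only and 6 with H3K9bhb only of 40. At APOB and APOA2, which encode apolipoproteins, the values were 15.0 and 14.9 in Y78A and 9.59 and 9.27 in H3K9bhb. C3, the central complement component, had 13.5 and 6.49. AHSG, fetuin A, had Y78A only, at 10.7, and the complement genes C4BPB and C5 had H3K9bhb only, at 9.70 and 9.02. The median H3K9bhb strength of this list's marked genes was 8.46, against 10.98 for all marked genes, and the median Y78A strength was 12.9, against 11.3.

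The lists of DNA replication and the cell cycle, like all coding genes, had more genes with H3K9bhb only than with Y78A only. DNA replication gave 11 with both, 2 with Y78A only and 9 with H3K9bhb only of 45. ORC6, of the origin recognition complex, had 16.5 in Y78A and 24.3 in H3K9bhb, GMNN, the licensing inhibitor, had 14.9 and 15.2, and PCNA, the sliding clamp, had 13.1 and 15.2. The helicase gene MCM7 and the polymerase gene POLD1 had Y78A only, at 7.85 and 7.49, while GINS4, of the same helicase assembly, and POLA1, the catalytic subunit of polymerase alpha, had H3K9bhb only, at 14.8 and 10.3. Cell cycle genes gave 6, 3 and 11 of 40. WEE1, a mitotic inhibitor kinase, had 18.8 and 18.3, CDK2 had 18.5 and 26.8, and CCND1, cyclin D1, had 14.8 and 6.37. The summits at CDK2 lay 1038 and 1095 bp past its end of higher coordinate, and those at CCND1 522 and 397 bp past it. The strand of CDK2 and CCND1 was not known here, so these need not be promoter peaks. The inhibitors CDKN2D and CDKN1B had Y78A only, at 12.5 and 8.69, while CCNE2 and the checkpoint gene MAD2L1 had H3K9bhb only, at 11.9 and 11.8.

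None of 40 genes of other tissues had either peak, and none had wild type ENL. The share of H3K9bhb genes with Y78A had an interval that held the 54.0% of all genes in each of the other lists except splicing factors. Marked splicing factor genes also had a higher median H3K9bhb strength than all marked genes, 12.6 against 10.98. The Y78A share rose with that strength over all genes, and the lists were not compared at like strength.

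**Figure D4:**
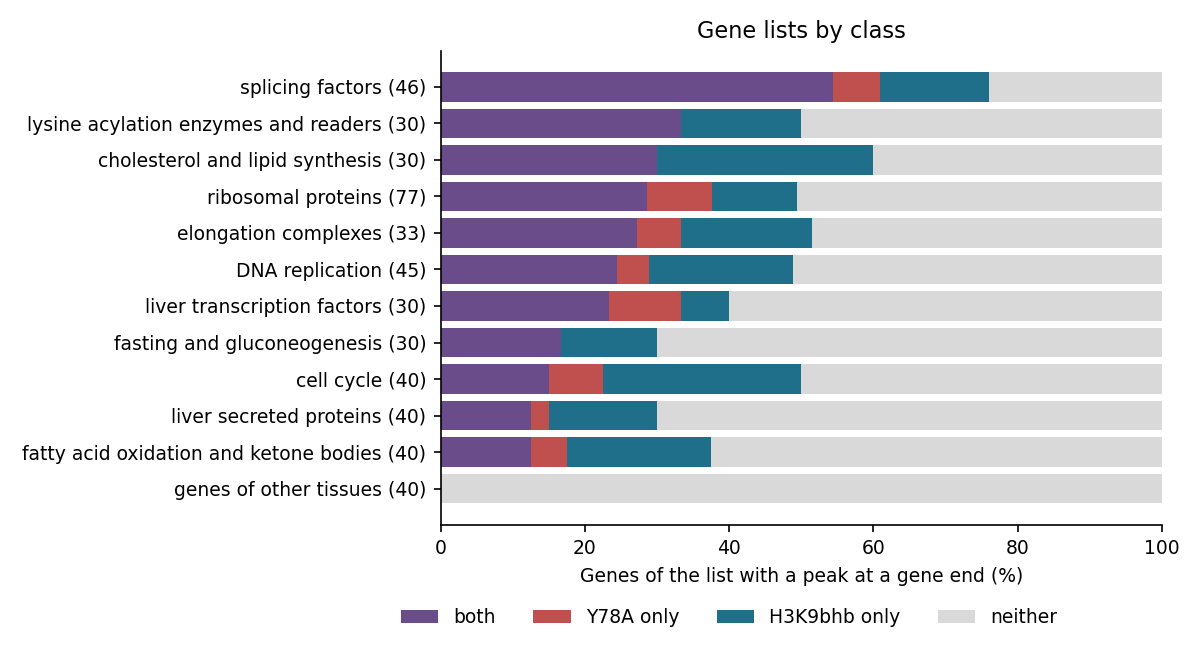
Share of the genes of each list, in percent, with a gene-end peak of both lists, of Y78A only, of H3K9bhb only or of neither; the number of genes stands beside the name. Splicing factors have the longest segment with both (25 of 46), and genes of other tissues have none.

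Summits of the 2 lists had similar median positions before gene starts. At 15842 coding genes the start and strand were known and the promoter sequence from 250 bases before to 50 after the start was given by RefSeq. At the 1823 of these promoters with both peaks, the median position from the start was −137 bp (interval −144 to −130, negative is upstream) for the Y78A summit and −142 bp (interval −150 to −134) for the H3K9bhb summit. The signed difference had a median of 1 bp (interval −1 to 4) and quartiles of −62 and 64 bp, so single promoters differed in both directions. At the 1646 promoters with H3K9bhb only, the median H3K9bhb summit lay nearer the start, at −73 bp (interval −88 to −58). Of these summits 39.1% were downstream of the start, against 25.2% at promoters with both. In bins of 50 bp they were most frequent on each side of the median, with 200 from −150 bp and 191 from 50 bp, against 126 from −50 bp. The promoter window reaches farther before the start than after it, which favours upstream summits in all classes.

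That shift of the median had the same direction at each strength of the mark. In 4 groups from the weakest to the strongest H3K9bhb peak, the median summit lay at −107, −123, −126 and −169 bp with Y78A and at −67, −59, −98.5 and −112.5 bp without it. The intervals were apart in the second and the strongest group (−141 to −99 against −95 to −27, and −180 to −158 against −143 to −56) and overlapped in the other two. The shift also went with wild type ENL. The median was −96 bp (interval −108 to −79) at the 1163 promoters with wild type ENL and no Y78A, and −18 bp (interval −44 to 2) at the 483 with no ENL peak. By strength of the mark the medians kept this direction, but the intervals were apart only in the second group (−125 to −49 against −38 to 29). The strongest group held 15 promoters with no ENL peak.

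**Figure D5:**
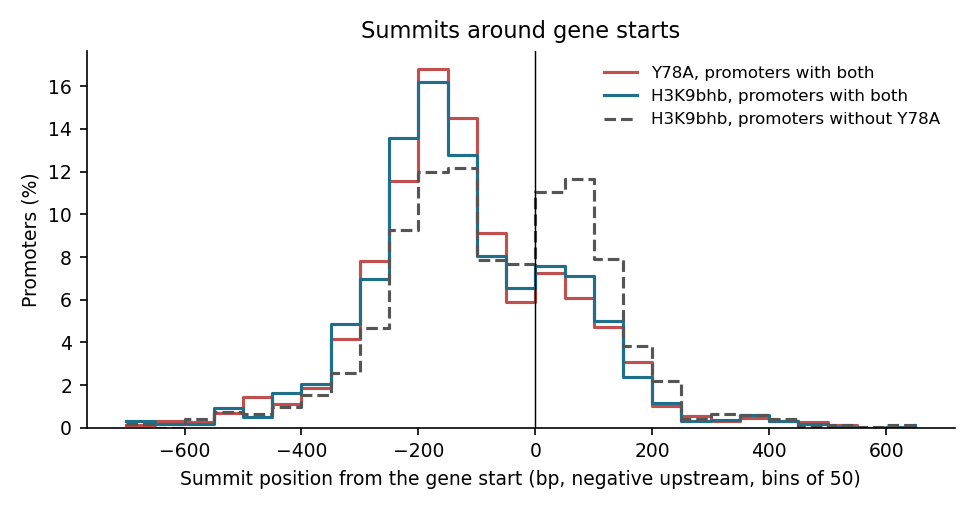
Share of promoters, in percent, by summit position from the gene start in bp (negative is upstream, bins of 50 bp) for Y78A and H3K9bhb at the 1823 promoters with both and for H3K9bhb at the 1646 without Y78A. The curves with both have similar shapes, with most summits upstream, while 39.1% of H3K9bhb summits without Y78A are downstream.

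Promoters with Y78A held CCAAT, the box bound by NF-Y, more often than marked promoters without it. CCAAT on either strand was present in 51.6% of promoters with both, 50.7% with Y78A only and 39.0% with H3K9bhb only, against 36.4% of all 15842. The difference between H3K9bhb promoters with and without Y78A was 12.6 percentage points (interval 9.25 to 15.8). By strength of the mark, the shares were 43.9%, 52.3%, 52.8% and 52.6% with Y78A and 39.5%, 37.3%, 39.0% and 43.1% without. The intervals were apart in the 2 middle groups and overlapped in the weakest (37.6 to 50.5 and 35.8 to 43.4) and the strongest (49.0 to 56.2 and 34.9 to 51.7). For CCGGAAG, a core of ETS factor sites, the difference was −4.64 points (interval −7.47 to −1.82), with 21.1% with both, 25.8% with H3K9bhb only and 14.2% of all. By strength of the mark its shares were 21.1%, 24.1%, 21.3% and 19.5% with Y78A and 28.4%, 24.1%, 23.3% and 26.2% without, with overlapping intervals in each group.

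TATAAA, the TATA box, was found at promoters with Y78A only about as often as at promoters in general. It was present in 3.73% of promoters with both and 3.22% with H3K9bhb only, but in 11.1% (interval 7.98 to 15.3) of the 288 with Y78A only, near the 9.63% of all promoters. GGGCGG, the GC box, was present in 81.5% with both, 67.0% with Y78A only and 77.5% with H3K9bhb only, against 58.5% of all. The median number of CpG pairs in the 300 bases was 28, 26 and 27, against 22. CACGTG was present in 9.87%, 7.99% and 12.0%, against 8.88% of all, and TGACGT in 14.3%, 16.0% and 14.4%, against 9.67%. None of the 6 motifs contains another, and a match describes the sequence and not a bound factor.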

How the data were processed

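CUT&Tag peak lists of HepG2 cells, 1 per library, were grouped by sample title. FastQC, Bowtie2, MACS2, deepTools and hg38 are named without versions per the submitters' processing notes. The sources used here do not name a control library, duplicate removal or mapping filters. The lists deposited by the authors hold positions and summit offsets in bp, a score, a fold (ratio over background), and p-values and q-values as −log10. The deposited columns carry no read counts, so depth is unknown. Whole summit fragments were recovered from the deposited fold and −log10 p within a relative tolerance of 3e-05.

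Peaks on the 24 standard chromosomes were used. Overlap needed 1 bp, and the code differed from bedtools 2.31.1 by 0 peaks. It was also tested on simulated data. Shares have Wilson intervals, differences Newcombe intervals and medians order-statistic intervals (95%), computed with Python 3.11.15, numpy 2.4.6, pandas 2.3.3 and scipy 1.17.1. Genes were 20037 protein-coding genes of RefSeq on GRCh38.p14, the assembly also named hg38, with windows of 1 kb around both ends. Promoter sequences matched 15842 of them, and all 478 genes of the 12 lists matched by symbol. The members and lists were chosen with earlier results of these data known.

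Named genes were, by −log10 p of the strongest gene-end peak, the 8 highest of each class (both, Y78A only, H3K9bhb only), up to 3 members of each list with both and up to 2 with each single list, and the 3 strongest peaks of each class away from gene ends, skipping readthrough genes and LOC names. Some list members that the rule named are not reported here. Alternatives were a −log10 q of 5, lists of equal length, contigs included, 50% overlap, windows of 500 and 2500 bp, gene starts only, and fold in place of p. Leaving out peaks over 100 kb from coding gene ends and limiting the wild type list were added after the data were seen.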

Additional observations from a re-analysis of the deposited data

Results flagged for a closer look

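Peaks outside the 24 standard chromosomes entered no comparison above, and the overlap was seen there too. Of 375 such Y78A peaks, 287 were overlapped by H3K9bhb (76.5%, interval 72.0 to 80.5). Of 484 such H3K9bhb peaks, 281 were overlapped by Y78A (58.1%, interval 53.6 to 62.4), against 46.4% on the standard chromosomes. These 2 values are flagged because they come from data outside the main measurement, and the sources used here name no control library to set beside them.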

How the results depend on the processing

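Among the 10 main values, the gene-end differences and strength ratios kept their direction under every alternative tried. The shares and the summit distance have no direction to turn. Of 61 alternative values, 32 stayed within the 95% interval of the reported one. The share of H3K9bhb peaks on Y78A crossed 50%, from 46.4% to 62.2% with the H3K9bhb list limited to 5422 peaks. The wild type share of H3K9bhb-only peaks crossed it too, from 55.9% to 19.9% with a limited wild type list. For the strength groups, ranking by fold did turn the order of the 2 weakest H3K9bhb groups (41.9% and 36.7%, against 19.9% and 31.9% by p). No paired analysis was possible because each group had 1 library. The share of Y78A peaks on H3K9bhb (79.0% as reported) was 75.8% with −log10 q of 5 or more in both lists, 62.9% with the H3K9bhb list limited to 5422 peaks, 77.3% with 50% overlap and 80.2% without peaks over 100 kb from a coding gene end. The converse share (46.4%) was 62.2% with the limited list and 45.4% with 50% overlap. In the first 2 of these settings (the q threshold, then the limited list) the median summit distance was 47 and 49 bp, and it was 58 bp without far peaks. The strength ratio for Y78A was 1.34 with the limited list and 1.18 by fold. That for H3K9bhb was 1.37 with the q threshold, 1.27 with the limited list and 1.09 by fold. Y78A was present at 51.5% and 66.9% of H3K9bhb genes with the q threshold and the limited list, and H3K9bhb at 82.8% and 70.8% of Y78A genes. The gene-end difference for Y78A peaks was 12.6 points with the q threshold, 10.0003 with the limited list and 13.8 with windows of 2500 bp. That for H3K9bhb peaks was 3.81, 5.36 and, without far peaks, 12.1 points. The wild type share of H3K9bhb-only peaks was 69.0% with the q threshold, 69.2% with the limited list, 53.7% with 50% overlap, 58.2% without far peaks and 19.9% with the wild type list limited to 5422 peaks. The limited lists and the q threshold change which peaks are compared, by construction. Contigs, windows of 500 bp and gene starts alone moved no value beyond its interval. Depth is unknown, so a peak absent from a list was not detected at that list's depth and is not shown to be absent from the chromatin.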

Other observations

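Overlap differed between chromosomes. The share of Y78A peaks on H3K9bhb was lowest on X, at 63.0% of 92 peaks, and highest on chromosome 14, at 87.1% of 163. The share of H3K9bhb peaks on Y78A was lowest on chromosome 15, at 33.3% of 240, and highest on Y, at 76.3% of 80. Summits within 1 kb of a long noncoding RNA gene end and of no coding gene end made up 5.51% of shared Y78A peaks, 5.02% of Y78A-only peaks and 4.68% of H3K9bhb-only peaks, with overlapping intervals. Only peaks away from coding and long noncoding RNA gene ends were then assigned to genes of small RNAs. At transfer RNA genes lay 6 shared Y78A peaks (0.14%), 1 Y78A-only peak (0.088%) and 11 H3K9bhb-only peaks (0.224%). Of the rest, 16 (0.373%), 8 (0.704%) and 13 (0.264%) lay at genes of small nuclear and nucleolar RNAs. The intervals of the classes overlapped in both cases.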
